A study of Mus musculus with 6 samples.

Results

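Condensin and cohesin are the ring-shaped complexes that fold and hold chromosomes, and 10 of their core subunits were followed here. The members were chosen by symbol: *Smc2* and *Smc4*, which belong to both condensins, *Ncapd2*, *Ncapg* and *Ncaph* of condensin I, *Ncapd3* and *Ncapg2* of condensin II, and *Smc1a*, *Smc3* and *Rad21* of cohesin. Each symbol matched 1 Ensembl gene of the 32493 in the count table, and all 10 were among the 16710 genes that passed a filter on low counts and were tested.

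Each complex is built on a pair of SMC proteins, long coiled-coil ATPases that are closed into a ring by a kleisin subunit and carry further HEAT-repeat subunits. Condensin compacts chromosomes in mitosis, condensin II from within the nucleus in prophase and condensin I after the nuclear envelope has broken down. Cohesin holds sister chromatids together from S phase to anaphase and also extrudes chromatin loops in interphase, so it is in use in cells that do not divide as well. In the embryonic cortex, neural stem cells line the ventricles and divide repeatedly, and mutations of condensin or cohesin genes are known from microcephaly and from developmental syndromes.

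RNA-seq was performed on neural stem cells (NSCs) grown for 3 generations in culture after isolation at E14.5 from the lateral ventricles of C57BL/6J mouse embryos. Both genotypes were homozygous for a floxed miR-151 allele, and cko differed from ctrl by Emx1-IRES-Cre, whose Cre is active in the dorsal telencephalon. The sample labels call the Cre-negative ctrl group wt. The sources do not say how many embryos a library came from, so the p-values below measure only the spread between these libraries. The labels give 3 samples per genotype, but the column of ctrl replicate 2 equalled the mean of ctrl 1 and ctrl 3, rounded up, in 32493 of 32493 genes, so that column was left out, and 2 ctrl libraries were set against 3 of cko, each with 17883796 to 23335736 counts.

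The NSC markers *Sox2* (556 to 625 normalized CPM), *Nes* (470.1 to 1067) and *Vim* (1993 to 3543) were present in all 5 libraries, where normalized CPM are counts relative to library size, scaled by the TMM method of edgeR. Of the 9 NSC markers, *Nes* (1.97-fold), *Hes5* (1.91-fold) and *Notch1* (1.40-fold) were called higher in cko, *Slc1a3* was called lower (0.578 of ctrl), and 5 did not pass an adjusted p of 0.05 in edgeR. Glial markers were present too, and their level moved with the genotype. The 9 oligodendrocyte markers summed to 1583 and 1839 normalized CPM in ctrl and to 950.5 to 995 in cko, with 6 of 9 lower in cko at an adjusted p under 0.05. The 7 astrocyte markers summed to 3033 and 1999 against 832 to 1531, with 4 of 7 lower. Over all tested genes, 7.86% were called higher and 8.57% lower at this threshold. The 9 neuronal markers summed to 1093 to 1219 in the 5 libraries, most of it *Map2* (958 to 1123). The migrating-neuron marker *Dcx* was lower in cko, at 147 and 100.1 normalized CPM in ctrl and at 54.8, 38.5 and 37.4 in cko (log2 fold change -1.51, adjusted p = 0.00486 in edgeR). It was the only neuronal marker called. Of the 6 that were tested, 4 had a log2 fold change above 0, and the median was 0.09. The markers of microglia, endothelium and fibroblasts did not sum to more than 6.70 in any library, with *Cx3cr1*, *Tmem119* and *Cdh5* at 0. The part of these cell types in the results below was not tested. In such bulk samples a larger number of dividing cells and more RNA per cell cannot be told apart.

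All 10 condensin and cohesin members were higher in cko than in ctrl NSCs. Every cko library lay above every ctrl library for each of the 10, and each passed the quasi-likelihood test of edgeR at 0.05 after Benjamini-Hochberg adjustment over all tested genes. Over the whole table, 7.86% of genes were called higher by this rule (5.49% in a fit with a replicate block). All cko libraries were above all ctrl libraries in 25.4% of genes and below them in 24.2%. The median log2 fold change of the 10 members was 0.83, against -0.003 for all 16710 genes. By complex, and with no test between them, the median was 0.83 for the shared *Smc2* and *Smc4*, 1.0 for the 3 subunits of condensin I alone, 0.76 for *Ncapd3* and *Ncapg2* of condensin II (0.47 with *Ncaph2*, the third subunit of condensin II alone, which is not a member), and 0.56 for cohesin. At a log2 fold change beyond 0.9 with an unadjusted p under 0.01, a rule that calls 2.39% of genes higher and 4.17% lower, *Ncapd2*, *Ncapg*, *Ncaph* and *Ncapg2* were called. Calls were fewer without cko 2 or cko 3. Without cko 2, and likewise without cko 3, the members called fell from 10 to 6. *Ncaph*, *Ncapd3*, *Ncapg2* and *Smc3* then had adjusted p-values between 0.0645 and 0.0767 in edgeR and kept their direction. Over all tested genes, those called higher fell from 1314 to 317 without cko 2 and to 336 without cko 3.

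**Figure D1:**
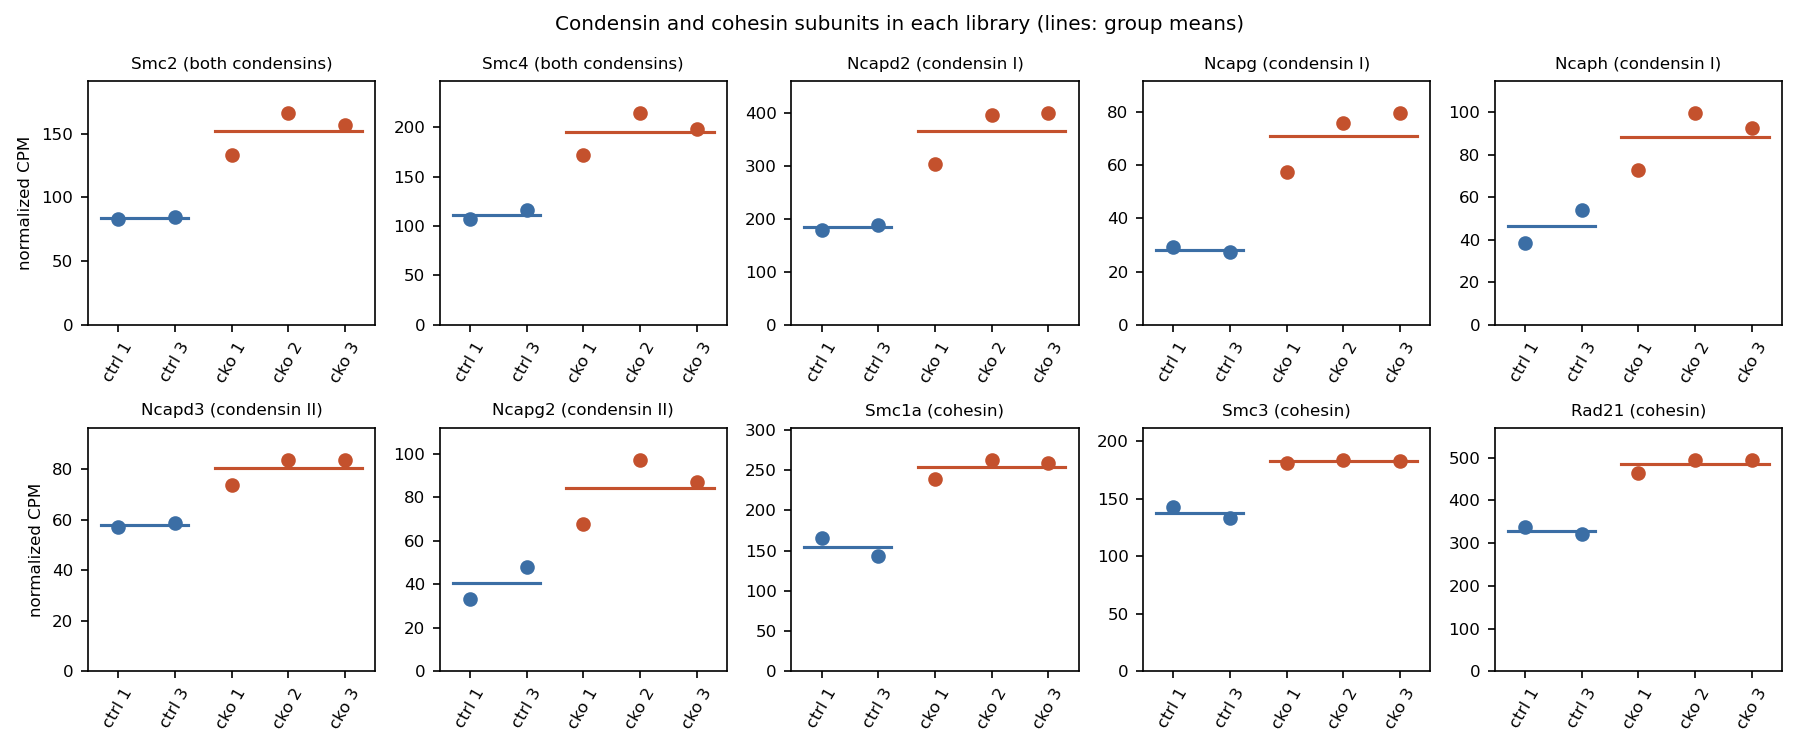
Normalized CPM (vertical axes, from 0) of the 10 members in ctrl libraries 1 and 3 (blue) and cko libraries 1, 2 and 3 (red), with lines at the group means. For each member the 3 cko libraries sit above both ctrl libraries, and cko 1 is the lowest of the cko libraries.

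Because the members moved together, their promoters were searched for motifs known from cell cycle genes: the CHR (TTTGAA or TTCGAA), the CCAAT box (CCAAT) and the E2F site (TTTGGCGC, TTTCCCGC, TTTGCCGC or TTTCGCGC), on both strands. RefSeq promoters (GRCm38.p6, 250 bases before to 50 after the start) were matched for 8 of 10 members, and *Smc4* and *Rad21* were not matched. The CHR was found at the first start of 4 of the 8 (*Smc2*, *Ncapd2*, *Ncapg* and *Ncapg2*), against 19.2% of all 32851 promoters. The E2F site was found in 4 of 8 (*Ncapd2*, *Ncapg*, *Ncapg2* and *Smc1a*) against 2.26%, and the CCAAT box in 4 of 8 (*Smc2*, *Ncapd2*, *Ncapg* and *Smc1a*) against 37.4%. *Ncaph*, *Smc3* and the first start of *Ncapd3* held none of the 3 in this window. These are matches of letters, and binding was not measured.

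For the genes named below, a CHR match, an E2F match or both are shown as 30-base windows on the strand of the gene. The motif or its reverse complement is in capitals. For *Smc2* the window shows the CHR match before the start, not the one within the transcript, which is nearer to the start. *Ncapg*, *Ncapg2* and *Ncapd2* had the 3 largest fold changes of the members, and *Ncaph*, the next in size (log2 fold change 0.93), held no match. A CHR match 249 bases before a second start of *Ncapd3* is not shown. A link between motifs and fold changes was not tested. The CHR lay 30 bases before the start in *Ncapg*, 18 before it in *Ncapg2* and 123 before it in *Ncapd2*, and *Smc2* had a match 145 bases before the start and a second one within the transcript.
Ncapg CHR, chr5:45669883-45669912, plus strand: ccgcgatagttgTTTGAAaactctggcgct
Ncapg2 CHR, chr12:116405406-116405435, plus strand: tacgcgggtgtgTTTGAAtctggtccgagc
Ncapd2 CHR, chr6:125191692-125191721, minus strand: cagccgttgaggTTTGAAcagggaattgcg
Smc2 CHR, chr4:52439064-52439093, plus strand: tcgctttccatgTTCAAAacggtatagtct
Ncapg E2F, chr5:45669945-45669974, plus strand: tgtcggaagccGCGGGAAActgagtcctcc
Ncapg2 E2F, chr12:116405425-116405454, plus strand: ctggtccgagcGCGGGAAActatgggtctg
Ncapd2 E2F, chr6:125191576-125191605, minus strand: ccatctcgttgTTTGGCGCgtatcctgccc
Smc1a E2F, chrX:152016448-152016477, plus strand: cggcttgcactgcgctaTTTCCCGCgcggg
In *Ncapg* and *Ncapg2* the CHR precedes the RefSeq start and an E2F match lies at that start or just after it. A further E2F match of *Ncapg2* lay 249 bases before its RefSeq start. All these distances run from RefSeq starts, which differ from the GENCODE gene positions given below. By the GENCODE positions, the CHR of *Ncapg2* lies within the gene, and that of *Ncapd2* lies closer to the start of its gene.

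*Smc2* (ENSMUSG00000028312, GRCm38 chromosome 4, 52439243 to 52488260, plus strand) and *Smc4* (ENSMUSG00000034349, chromosome 3, 69004738 to 69034623, plus strand) encode the ATPase pair of both condensins. *Smc2* was measured at 83.1 and 84.9 normalized CPM in ctrl 1 and ctrl 3, and at 133, 166 and 157 in cko 1, 2 and 3. The 2 ctrl libraries were almost equal, and the lowest cko library was well above them. This gave 84.0 ± 1.27 (SD, n = 2) against 152 ± 16.8 (SD, n = 3), a 1.81-fold difference with a 95% interval of 1.52 to 2.14 (log2 fold change 0.85, standard error 0.105, adjusted p = 0.00342 in edgeR). *Smc4* was at 107 and 116 normalized CPM in ctrl and at 172, 214 and 198 in cko, 1.75-fold higher (interval 1.47 to 2.08, adjusted p = 0.00436 in edgeR). The SMC partners therefore differed between genotypes by nearly the same factor. The miRNA genes *Mir15b* and *Mir16-2* lie within *Smc4* on the same strand and share no exon base with it.

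Of the subunits found in condensin I alone, *Ncapg* had the largest difference of all 10 members. *Ncapg* (ENSMUSG00000015880, chromosome 5, 45669919 to 45700546, plus strand) encodes a HEAT-repeat subunit. It was at 29.1 and 27.2 normalized CPM in ctrl and at 57.5, 75.7 and 79.4 in cko, or 28.1 ± 1.29 (SD, n = 2) against 70.8 ± 11.7 (SD, n = 3). The fold change was 2.52, with a 95% interval of 1.98 to 3.20 (log2 fold change 1.33, standard error 0.148, adjusted p = 0.00251 in edgeR). *Ncapg* overlaps *Lcorl* on the opposite strand over 13.36% of its exon bases, and the strand setting of the counts is not given in the sources used here. *Lcorl* itself was at 86.8 to 103 normalized CPM in the 5 libraries, and its log2 fold change was 0.03 (edgeR adjusted p = 0.832).

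*Ncapd2* (ENSMUSG00000038252, chromosome 6, 125168007 to 125191701, minus strand), the second HEAT-repeat subunit, was at 179.6 and 188 normalized CPM in ctrl and at 303, 397 and 399.7 in cko. The cko mean was 2.0 times the ctrl level (interval 1.61 to 2.47, adjusted p = 0.00431 in edgeR), and the gap between the groups exceeded the spread within either. *Ncaph* (ENSMUSG00000034906, chromosome 2, 127103809 to 127133954, minus strand) encodes the kleisin that closes the ring. Its ctrl libraries differed from each other, at 38.7 and 54.1 normalized CPM, and the cko libraries were at 72.8, 99.4 and 92.4. The groups did not overlap, and the interval was wide, 1.43 to 2.54 around a 1.90-fold difference (standard error 0.178 on the log2 scale, adjusted p = 0.0150 in edgeR). Its promoter held none of the motifs searched.

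Condensin II was not uniform. *Ncapd3* (ENSMUSG00000035024, chromosome 9, 27030175 to 27095315, plus strand), the counterpart of *Ncapd2*, was at 57.2 and 58.5 normalized CPM in ctrl and at 73.8, 83.4 and 83.6 in cko. It was 1.39-fold higher (interval 1.21 to 1.60, adjusted p = 0.0125 in edgeR), the smallest difference among the condensin members. *Ncapg2* (ENSMUSG00000042029, chromosome 12, 116405402 to 116463731, plus strand), the counterpart of *Ncapg*, was at 33.1 and 47.9 normalized CPM in ctrl and at 67.6, 97.2 and 87.2 in cko. It was 2.08-fold higher (interval 1.51 to 2.87, adjusted p = 0.0138 in edgeR), with a ctrl spread like that of *Ncaph*. The condensin II kleisin *Ncaph2*, which is not one of the 10 members, was at 106 and 113 normalized CPM in ctrl and at 124, 148 and 146 in cko. Its 1.28-fold difference was at the edge of the threshold (interval 1.09 to 1.49, adjusted p = 0.0482 in edgeR), and its call was lost with another normalization (0.0517), with a stricter filter (0.0507) and without ctrl 1 (0.0945), cko 2 (0.189) or cko 3 (0.183). *Ncaph2* shares exon bases with *Sco2* and *Tymp* on the opposite strand, over 19.75% and 12.74% of its exons, and its counts are uncertain for that reason. A processed pseudogene, *Gm7535*, matched its transcript at 92.2% identity over 1844 bases and held 2 to 29 counts.

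The contrast between the condensins was read as the ratio of counts of a condensin I subunit to its condensin II counterpart within a library, which does not depend on scaling. *Ncapd2* to *Ncapd3* stood at 3.14 and 3.21 in ctrl and at 4.10, 4.76 and 4.78 in cko, a difference in log2 ratio of 0.52 with no overlap. *Ncaph* to *Ncaph2* stood at 0.366 and 0.479 in ctrl and at 0.585, 0.672 and 0.633 in cko, a difference of 0.59, again with no overlap. *Ncapg* to *Ncapg2* stood at 0.877 and 0.568 in ctrl and at 0.850, 0.779 and 0.910 in cko. There the groups overlapped, and the difference of 0.26 became -0.055 without ctrl 3. The 2-sided exact permutation test gave p = 0.2, 0.2 and 0.6 for the 3 pairs (0.3, 0.3 and 0.6 after Benjamini-Hochberg adjustment over the 3), and 0.2 is the smallest value that 10 assignments of the libraries allow. No pair could therefore pass a threshold of 0.05 in this design.

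**Figure D2:**
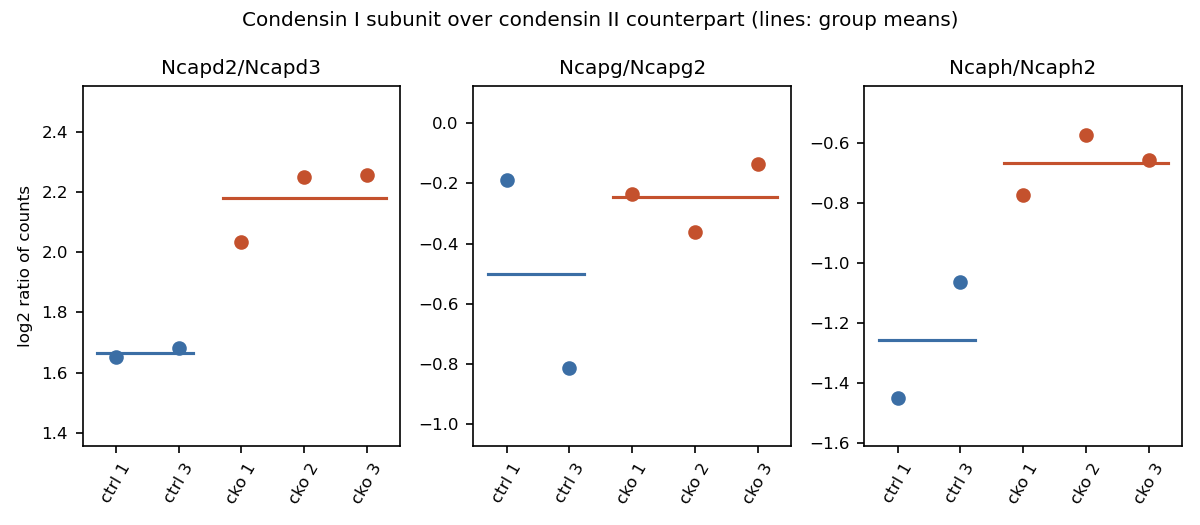
Log2 ratio of the counts of a condensin I subunit to those of its condensin II counterpart in each library (blue ctrl, red cko, lines at group means), on axes of equal span. The ratios of Ncapd2 to Ncapd3 and of Ncaph to Ncaph2 are higher in all 3 cko libraries than in both ctrl libraries, and those of Ncapg to Ncapg2 overlap.

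Cohesin members had smaller fold changes than each condensin member but *Ncapd3*, a difference that was not tested, and their cko libraries lay close together. *Rad21* (ENSMUSG00000022314, chromosome 15, 51962240 to 51991747, minus strand) encodes the kleisin that separase cuts at anaphase. It was at 337 and 321 normalized CPM in ctrl and at 465, 495 and 494 in cko. The cko libraries lay within 1.06-fold of each other and above both ctrl libraries, a 1.47-fold difference (interval 1.30 to 1.67, standard error 0.076 on the log2 scale, adjusted p = 0.00465 in edgeR). *Smc3* (ENSMUSG00000024974, chromosome 19, 53600398 to 53645833, plus strand), the SMC subunit that is acetylated when cohesion is set up, was at 143 and 133 normalized CPM in ctrl and at 181, 184 and 183 in cko. Its 1.33-fold difference (interval 1.18 to 1.49, adjusted p = 0.0114 in edgeR) was the smallest of the 10. The processed pseudogene *Gm29763* matched the *Smc3* transcript at 94.5% identity over 616 bases, so the counts of *Smc3* are uncertain to that extent.

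*Smc1a* (ENSMUSG00000041133, chromosome X, 152016428 to 152062694, plus strand), the partner of SMC3, was at 166 and 144 normalized CPM in ctrl and at 239, 263 and 259 in cko. It was 1.64-fold higher (interval 1.41 to 1.90, adjusted p = 0.00415 in edgeR), the largest difference of the cohesin members. The partners *Smc1a* and *Smc3* thus differed in size, a difference that was not tested itself. *Smc1a* is the X-linked member, and genes that report the sex of the cells moved with the genotype. *Xist*, the RNA of the inactive X chromosome, was at 2885 and 2554 normalized CPM in ctrl and at 786 to 893 in cko, and the Y-linked *Kdm5d* was at 25.0 and 27.0 against 67.5 to 69.1. The other Y-linked genes *Ddx3y*, *Eif2s3y* and *Uty* were also higher in all 3 cko libraries. Every library thus held *Xist* together with Y-linked RNA, which RNA of a single male or female embryo would not hold. *Xist* and the Y-linked genes did not overlap between the groups. The part of sex in the *Smc1a* difference was not tested and cannot be told apart from that of the genotype. The same holds for every other gene compared between cko and ctrl here, X-linked or not.

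**Figure D3:**
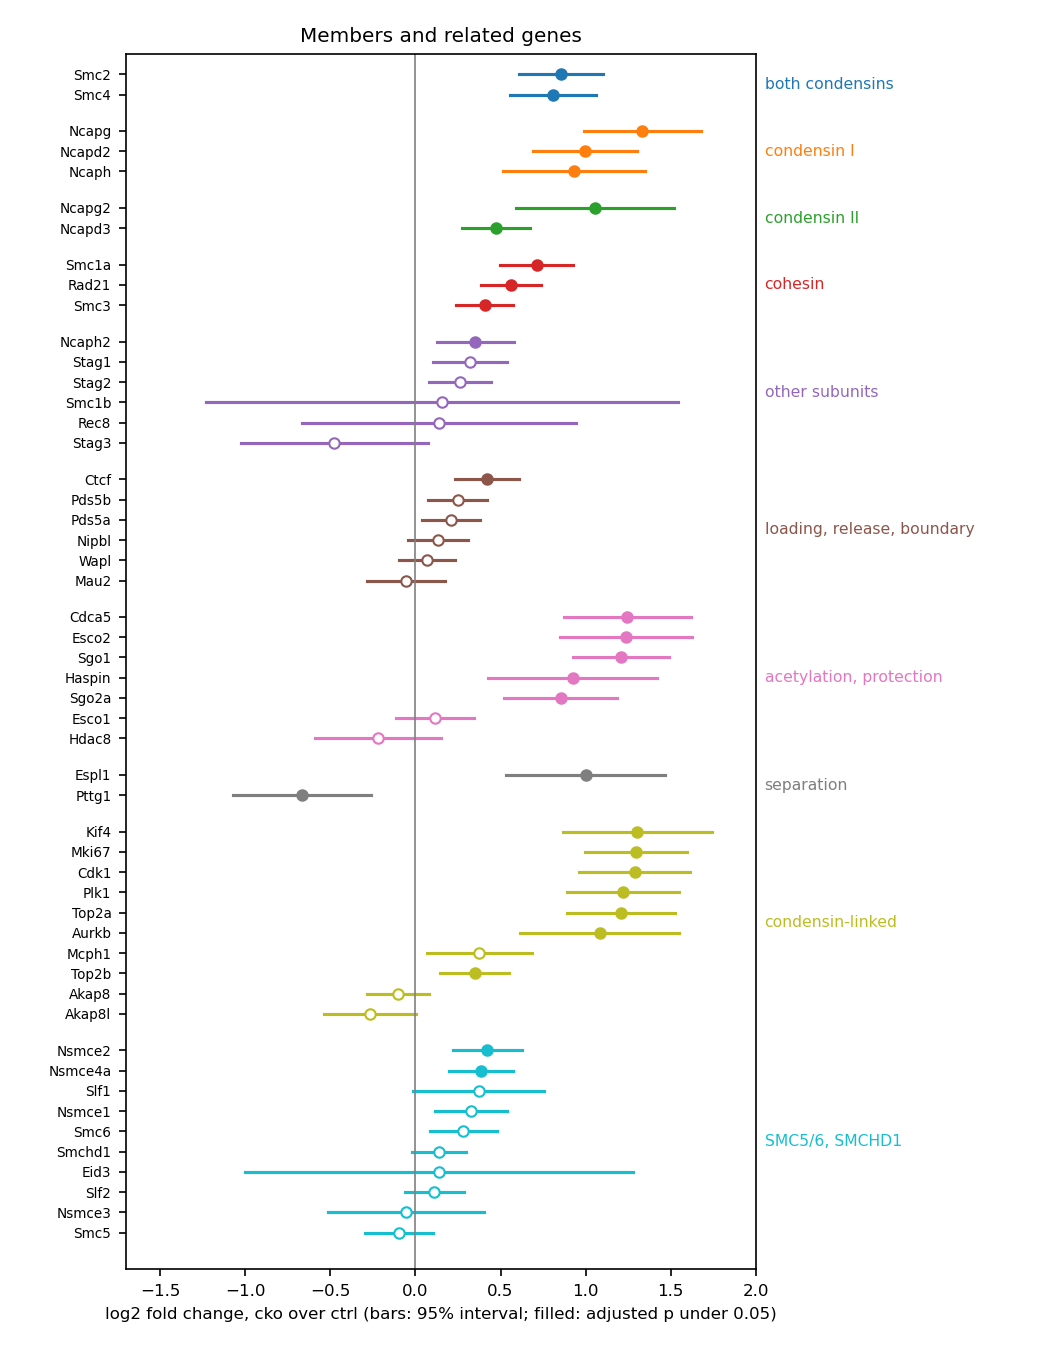
Log2 fold change of cko over ctrl with its 95% interval (horizontal axis) for the 10 members and 41 tested related genes, grouped by role. Filled points have an adjusted p under 0.05 in edgeR. All 10 members are filled and to the right of 0, and Pttg1 is the only filled point to the left.

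The related genes were described by lists of their roles, 41 of whose 42 genes could be tested. Of these, 17 were called higher and 1 lower in cko, against 7.86% and 8.57% of all tested genes, and their median log2 fold change was 0.32. Without cko 2, and likewise without cko 3, 8 were called higher and none lower in edgeR.

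Cohesin carries either STAG1 or STAG2 as its peripheral subunit. *Stag1* was at 93.5 and 81.5 normalized CPM in ctrl and at 113, 102 and 113 in cko, a 1.25-fold difference (interval 1.07 to 1.45) that did not pass the threshold (adjusted p = 0.0554 in edgeR, and 0.0410 in DESeq2). *Stag2*, which is X-linked, had a 1.20-fold difference (interval 1.06 to 1.36, adjusted p = 0.0607 in edgeR, and 0.0454 in DESeq2). Both lay above ctrl in all 3 cko libraries. The subunits of meiotic cohesin were scarce. *Stag3* was at 3.86 to 7.62 normalized CPM (log2 fold change -0.48, adjusted p = 0.205 in edgeR), *Rec8* at 3.97 to 8.45, *Smc1b* at 0.218 to 0.693 with 5 to 13 counts, and *Rad21l* at 0 to 7 counts, below the filter.

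Of 6 factors that load cohesin onto chromatin, release it or stop it at boundaries, 5 were above ctrl in all cko libraries. The share over all tested genes was 25.4%, and the median log2 fold change of the list was 0.17. One gene of the list passed the test, the boundary factor *Ctcf*, at 133 and 132 normalized CPM in ctrl and 165, 188 and 179 in cko (1.34-fold, adjusted p = 0.0150 in edgeR), a call that was lost without cko 2 (0.0883) or cko 3 (0.0845). The loader *Nipbl* had a fold change of 1.10 (interval 0.970 to 1.24), its partner *Mau2* of 0.962 (0.821 to 1.13) and the releasing factor *Wapl* of 1.05 (0.933 to 1.17). The intervals of these 3 genes held 1 and ended below the 1.30-fold lower limit of *Rad21*. That of *Nipbl* overlapped the interval of *Smc3* (1.18 to 1.49). A difference between these factors and the cohesin members was not tested. *Pds5a* and *Pds5b* had fold changes of 1.16 (interval 1.03 to 1.30) and 1.19 (1.05 to 1.34) with adjusted p-values of 0.0905 and 0.0615 in edgeR.

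Among genes that acetylate, deacetylate or protect cohesin, 5 of 7 were called higher, against 7.86% of all tested genes. The median log2 fold change of the 7 was 0.92. *Esco2*, the acetyltransferase that works at replication forks, was at 13.9 and 17.6 normalized CPM in ctrl and at 31.2, 42.3 and 37.6 in cko, a 2.36-fold difference (interval 1.80 to 3.09, adjusted p = 0.00452 in edgeR). Its paralog *Esco1*, which acetylates cohesin throughout the cell cycle, was at 25.7 and 26.8 against 29.7, 28.6 and 26.8, or 1.08-fold (interval 0.925 to 1.27, adjusted p = 0.456 in edgeR). The groups did not overlap for *Esco2* and all but touched for *Esco1*. *Cdca5*, which encodes sororin, an antagonist of WAPL, was 2.37-fold higher (adjusted p = 0.00396 in edgeR) and *Sgo1*, the shugoshin that guards centromeric cohesin, 2.31-fold (adjusted p = 0.00195). *Sgo2a* and the kinase gene *Haspin* were 1.80-fold and 1.90-fold higher. *Sgo2a* lost its call without cko 2 or cko 3, and *Haspin* without any of the 3 cko libraries. The X-linked deacetylase gene *Hdac8* had a fold change of 0.859 (interval 0.665 to 1.11).

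The genes that end cohesion moved in opposite directions. *Espl1*, which encodes separase, was at 35.9 and 43.5 normalized CPM in ctrl and at 58.2, 93.1 and 86.3 in cko, a 2.0-fold difference (interval 1.44 to 2.77, adjusted p = 0.0176 in edgeR). *Pttg1*, which encodes securin, the inhibitor of separase, was at 17.5 and 17.2 in ctrl and at 13.0, 11.0 and 8.86 in cko. It was the only gene called lower among the members and related genes, at 0.631 of the ctrl level (interval 0.476 to 0.836, adjusted p = 0.0403 in edgeR) on 193 to 401 counts. Both calls were lost without cko 2 or cko 3, with adjusted p-values of 0.0725 and 0.0803 for *Espl1* and 0.140 and 0.124 for *Pttg1*, and neither changed its direction.

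Among 10 genes tied to condensin on mitotic chromosomes, 7 were called higher, against 7.86% of all tested genes. The median log2 fold change of the 10 was 1.14. *Top2a*, the topoisomerase that works beside condensin, was at 253 and 282 normalized CPM in ctrl and at 515, 683 and 654 in cko, 2.31-fold higher (adjusted p = 0.00253 in edgeR). *Mki67*, the proliferation marker that coats mitotic chromosomes, was 2.46-fold higher (interval 1.99 to 3.02) and the chromosomal kinesin *Kif4* 2.47-fold. The kinase genes *Aurkb*, *Plk1* and *Cdk1*, whose products phosphorylate condensin, were 2.12-fold, 2.33-fold and 2.44-fold higher, and *Aurkb* lost its call without cko 2 (adjusted p = 0.0657 in edgeR) or cko 3 (0.0670). *Top2b*, the paralog that is expressed in dividing and non-dividing cells, was 1.27-fold higher (interval 1.10 to 1.47), a call lost without any of the 3 cko libraries. *Mcph1*, which restrains condensin II, had a fold change of 1.30 (interval 1.05 to 1.60) that did not pass the threshold (adjusted p = 0.0931 in edgeR). *Akap8* and *Akap8l* had fold changes of 0.930 and 0.832, and the groups overlapped.

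The third SMC complex, SMC5/6, which serves DNA repair, served as a comparison outside condensin and cohesin. With *Smchd1*, its list held 10 tested genes. *Nsmce2* and *Nsmce4a* were called higher (1.34-fold and 1.30-fold, adjusted p = 0.0180 and 0.0192 in edgeR), against 7.86% of all tested genes. Both calls were lost without cko 2 or cko 3, and that of *Nsmce2* also without cko 1 (adjusted p = 0.0554 in edgeR). In 6 of the 10, every cko library lay above every ctrl library, against 25.4% of all tested genes. *Smc5* was at 143 ± 10.8 (SD, n = 2) normalized CPM in ctrl and at 125, 135 and 142 in cko, with a fold change of 0.935 (interval 0.813 to 1.08). *Smc6* had a fold change of 1.22 (interval 1.06 to 1.39, adjusted p = 0.0577 in edgeR). The median log2 fold change of the list was 0.21.

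Cell cycle genes moved with the genotype as well, in a table where 7.86% of all tested genes were called higher and 8.57% lower. Of the 43 S-phase genes used by Seurat, 29 were called higher, 14 did not pass the test, and the median log2 fold change was 0.78, with *Polr1b* (-0.23, unadjusted p = 0.0272 and adjusted p = 0.105 in edgeR) and *Cdca7* (-0.06) below 0. Of its 52 G2/M genes, *Smc4* and *Ncapd2* left out, 46 were called higher and none lower in edgeR (also none at an unadjusted p under 0.05), with a median log2 fold change of 1.11. They include *Top2a*, *Mki67*, *Aurkb*, *Cdk1* and *Ctcf*, which were already counted above among the related genes. The summed level of the 52 was 4591 and 5149 normalized CPM in ctrl and 7488, 9265 and 8954 in cko. Set against this sum, the 5 condensin I subunits amounted to 9.52% and 9.13% in ctrl and to 9.86%, 10.3% and 10.3% in cko. *Ncapd3* and *Ncapg2* amounted to 1.97% and 2.07% in ctrl and to 1.89%, 1.95% and 1.91% in cko, and the cohesin members to 14.1% and 11.6% against 11.8%, 10.2% and 10.5%. The share of condensin I was thus slightly higher in each cko library, that of the condensin II pair slightly lower, and that of cohesin overlapped between the genotypes. These shares were not tested. A sum weighs abundant genes most, such as *Cbx5* at 594 to 899 normalized CPM (log2 fold change 0.41). By gene, the median log2 fold change of the 5 condensin I subunits was 0.93, below the 1.11 of the G2/M genes.

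Among the cko libraries, cko 1 was the lowest for all 10 members, as it was for 39.4% of all tested genes. It was also the lowest for all 52 of the G2/M genes above and for 39 of the 43 S-phase genes. The mean of cko 2 and cko 3 was 1.35 times cko 1 for *Ncapg*, 1.36 times for *Ncapg2* and 1.32 times for *Ncapd2* and *Ncaph*, but 1.06 times for *Rad21* and 1.02 times for *Smc3*. *Mki67* had a ratio of 1.29. In the same libraries the astrocyte gene *Gfap* went the other way, at 297 normalized CPM in cko 1 and at 86.6 and 121 in cko 2 and cko 3. Between the ctrl libraries, *Ncaph* and *Ncapg2* were 1.40-fold and 1.45-fold higher in ctrl 3, and the other 8 members lay within 1.16-fold.

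Levels of different genes were compared as normalized CPM per kb of annotated exons. *Rad21* was the most abundant, at 77.8 ± 2.56 (SD, n = 2) in ctrl and 115 ± 4.04 (SD, n = 3) in cko. In ctrl it was followed by *Ncapd2* (29.3), *Smc1a* (26.9), *Ncaph2* (26.1), *Stag2* (25.9) and *Smc3* (24.9), each of which overlapped its neighbour in this order. *Smc4* (21.4), *Smc2* (15.3) and *Ncaph* (10.8) came next and were separate from their neighbours. *Stag1* (7.43) and *Ncapd3* (7.33) overlapped, and so did *Ncapg2* (4.08) and *Ncapg* (3.98) at the lower end. In cko, *Ncapd2* reached 58.5 ± 8.81 and *Smc4* 37.4 ± 4.06 (SD, n = 3), and *Smc4* moved from rank 7 to rank 4, above *Ncaph2* and *Smc3* by mean but overlapping both. The 4 lowest genes, *Ncapd3* (10.2), *Ncapg* (8.13 to 11.2 over libraries), *Stag1* (9.29) and *Ncapg2* (8.45), all overlapped in cko. With the length of the longest coding transcript instead, *Rad21* and *Ncapd2* kept the top of the order, and *Ncapd3* became the lowest in cko (14.6).

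**Figure D4:**
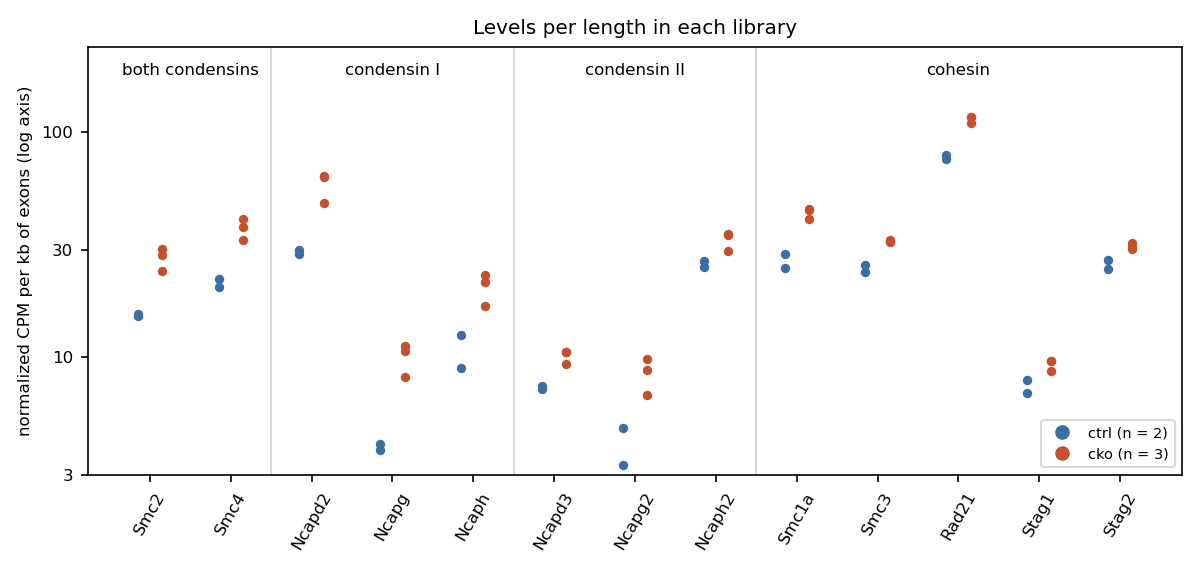
Normalized CPM per kb of exons (log axis) of the 10 members with Ncaph2, Stag1 and Stag2, each point a library (blue ctrl, red cko), grouped by complex. Rad21 is highest in both genotypes, and Ncapg and Ncapg2 are lowest in ctrl.

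The genes whose profile over the 5 libraries was most like the mean log2 level of the 5 condensin I subunits were *Bub1b*, *Rad54l*, *Limd2*, *Top2a* and *Jpt1*, with Pearson's r from 0.9994 to 0.9997 among 10179 genes with a mean of at least 10 CPM. For the 3 cohesin members they were *Ccdc34*, *Btg2*, *Stmn1*, *Vash2* and *Cep57*, with r from 0.9993 to 0.9999. The points share the genotype difference, and 194 and 148 genes reached r over 0.99 for condensin I and cohesin.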

How the data were processed

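RNA-seq was analysed in NSCs of 2 genotypes. The authors deposited raw counts per Ensembl gene, made after quality control in FastQC (0.11.5), read filtering in NGSQC (2.3.3) and HISAT2 alignment to mm10. The submitters' processing notes name GRCm39. The counting tool and strand setting are not given in the sources used here. Reads from overlapping genes or near-identical copies may therefore be misplaced. The members and lists were chosen with earlier results of these data known.

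Symbols, positions and exon lengths came from GENCODE M21 (GRCm38), which matched 31836 of 32493 IDs. The other 657 held 0.181% to 0.299% of a library's counts. In R 4.3.3, edgeR 4.0.16 served for the filter on low counts (filterByExpr by genotype), TMM factors and the quasi-likelihood test, without a replicate term, since 2 numbers shared by the genotypes do not establish pairs. Calls used a Benjamini-Hochberg adjusted p under 0.05 over 16710 genes. Errors are SD over libraries. Intervals are 95% intervals of the fold change from the same fit.

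As alternatives, libraries were left out singly, all 6 columns were used, a replicate block was added, the filter was dropped or set to 10 counts per library, size factors were median-of-ratios, DESeq2 1.42.0 replaced edgeR, or the threshold was changed. Totals of 17883796 to 23335736 counts put 3 counts at 0.129 to 0.168 CPM, a floor for counting error only. On simulated data for this comparison, with 200 of 16710 genes changed by a log2 fold change of 1.5, edgeR found 99.5% of these, and 10.4% of its 222 calls were false. For DESeq2 the values were 100% and 17.0% of 241. The log2 fold changes of the members, 0.406 to 1.332, were smaller than the simulated 1.5. The simulation therefore does not give the recovery at their size. The genes named were all members, the related genes by list with their extremes, and the 5 genes most like condensin I and cohesin. Further related, marker and cell cycle genes with values were chosen after these were seen. Similar transcripts were searched with blastn 2.17.0 (at least 90% identity over 200 bases), G2/M genes came from Seurat 5.3.0 and figures from matplotlib 3.10.9. The level of the deleted miRNA was not analysed here.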

Additional observations from a re-analysis of the deposited data

How the results depend on the processing

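The number of members called higher was 10 in edgeR, DESeq2, both filters, both normalizations, the 6-column fits and the fits with a replicate block. Leaving out single libraries gave 6 to 10, and the rule with a log2 fold change beyond 0.9 gave 4. Of 130 values of single members under the alternatives, 122 kept their direction and side of the threshold, and 8 kept the direction and lost the call. Related genes called higher numbered 17, or 11 by the rule on size and 8 to 19 with a library left out. The single lower gene, Pttg1, was lost with the rule on size (0 genes), and leaving out a library gave 0 to 3 (3 without ctrl 3). Over all genes, 1314 higher and 1432 lower became 399 and 696 by the rule on size, 2865 and 2794 with all 6 columns in edgeR, 2562 and 2519 in DESeq2, and 317 to 1812 and 416 to 2062 with a library left out. No filter gave 2237 lower genes. The column that is a mean adds no independent library. Lone ctrl libraries were assumed to vary like the cko libraries.

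Same-numbered libraries of the genotypes deviated together only weakly (Pearson's r = 0.143 and 0.0507 across genes for replicates 1 and 3). With the replicate block, cko 2 has no partner. The block gave 10 members and 12 related genes higher, 0 related genes lower (Pttg1, adjusted p = 0.0543 in edgeR), and 918 and 1065 genes over the table, and Ncaph2 (0.126), Ctcf (0.0600), Top2b (0.118), Nsmce2 (0.0574) and Nsmce4a (0.0833) passed no longer. With all 6 columns and the block, 2675 and 2673 genes were called. The differences in log2 ratio were 0.481, 0.317 and 0.540 within the block for Ncapd2/Ncapd3, Ncapg/Ncapg2 and Ncaph/Ncaph2. With a library left out they ranged from 0.478 to 0.588, from -0.055 (without ctrl replicate 3) to 0.571 and from 0.394 to 0.781. The causes of these shifts were not tested.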
